A study of Homo sapiens with 3 samples.

Results

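The 10 genes described here encode CTCF and the proteins of the cohesin cycle: the ring subunits SMC1A, SMC3 and RAD21, the STAG1 and STAG2 subunits, the loader NIPBL, and the release and maintenance factors WAPL, PDS5A and PDS5B. They were chosen by name, because CTCF is a known partner of CHD8 and cohesin acts with CTCF. Earlier results of these data were known when they were chosen, so the counts below describe the group only. They are 10 of 20033 protein-coding genes in GENCODE release 44. Every CHD8 and TRRAP peak from 5 kb upstream of each gene to its end was taken, which gave 17 of 23393 CHD8 peaks and 18 of 14735 TRRAP peaks. The peaks came from chromatin immunoprecipitation and sequencing (ChIP-seq) of wild-type neural stem cells of human origin, made from the established embryonic stem cell line H9. Chromatin was crosslinked with 2 mM disuccinimidyl glutarate and then 1% formaldehyde, and was precipitated with an antibody to CHD8 or to TRRAP. Each antibody had 1 library, so no difference between conditions was tested and no value has a replicate error. The control IgG library was not analysed here.

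Cohesin is a ring that holds DNA molecules together and extrudes chromatin loops. NIPBL loads and drives it, WAPL with PDS5A or PDS5B releases it, and CTCF bound to DNA stops it, which sets the anchors of loops. CHD8 is a nucleosome remodeler of the CHD family that binds CTCF, and TRRAP is a scaffold of histone acetyltransferase complexes. The peaks below lie on the genes for these proteins and do not show where CTCF or cohesin themselves bind.

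All 10 genes had a CHD8 peak and a TRRAP peak at the promoter, taken as 1 kb either way from where the canonical transcript begins. Over all protein-coding genes, 55.9% had a CHD8 promoter peak, 34.9% a TRRAP promoter peak and 34% both. Of the genes with a CHD8 promoter peak, 60.7% also had a TRRAP peak. The CHD8 peaks at CTCF and cohesin genes were wide and mostly strong, whereas the TRRAP peaks spanned the usual range of their list and were often split in a pair under 1 CHD8 peak. Outside the promoters, about 1724 kb of gene and upstream sequence held 4 CHD8 peaks and 1 TRRAP peak.

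Stretches of sequence from the GRCh38 genome show where these peaks sat, and each is written 5′ to 3′ along its gene. The first set is 30 bases at or just downstream of the start sites of CTCF, SMC3 and PDS5B, which share a word recognised by the transcription factor YY1. Capitals mark that word, read here on the strand opposite to its usual spelling, and the stretches are at chr16:67562542-67562571, chr10:110567676-110567705 and chr13:32586441-32586470, all on the plus strand.
CTCF, downstream of the start: accgcgccgccGCCATTTTgtgtctgagcc
SMC3, across the start: ccacgagcgccGCCATTTTgtttggctgag
PDS5B, across the start: gagcgcttggcGCCATTTTgaagcggagag
The second set is the 101 bases around the summits of the 3 strongest TRRAP peaks of the group and of the one strong CHD8 peak outside a promoter. Capitals mark the 11 bases centred on the summit. The stretches are at chr16:67562313-67562413 (plus strand), chr3:136752559-136752659 (minus strand), chr5:36875935-36876035 and chr5:36878890-36878990 (both plus strand).
CTCF, TRRAP summit: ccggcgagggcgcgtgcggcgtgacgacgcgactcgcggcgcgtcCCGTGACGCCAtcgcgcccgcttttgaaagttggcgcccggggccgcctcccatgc
STAG1, TRRAP summit: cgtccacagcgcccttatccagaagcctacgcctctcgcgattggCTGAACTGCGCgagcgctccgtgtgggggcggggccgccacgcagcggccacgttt
NIPBL, TRRAP summit: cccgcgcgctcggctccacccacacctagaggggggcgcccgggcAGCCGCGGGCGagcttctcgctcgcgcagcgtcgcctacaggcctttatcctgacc
NIPBL, CHD8 summit in intron 1: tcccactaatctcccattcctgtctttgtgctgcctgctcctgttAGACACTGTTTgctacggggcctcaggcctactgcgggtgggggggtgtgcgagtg

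CTCF (ENSG00000102974.16, chromosome 16, 67562467 to 67639177, plus strand) encodes the zinc finger protein that marks loop anchors and insulators. It had the strongest CHD8 peak of the group, at 67561918 to 67563638, with a width of 1721 bp. Its fold, the signal at the summit over background as the authors deposited it, was 48.6, above 99.2% of the 11208 genes with a CHD8 promoter peak. The summit lay 152 bp downstream of the start site, in the 5′ UTR in exon 1. Under this 1 peak lay a pair of TRRAP peaks. The first, at 67561968 to 67562611 (644 bp), had a fold of 19.6 and its summit 163 bp upstream, and the second, at 67562737 to 67563389 (653 bp), had a fold of 15.3 and its summit 357 bp downstream, in intron 1. The CHD8 summit fell between both TRRAP summits. A divergent non-coding gene, CTCF-DT, starts 217 bp upstream, inside the CHD8 peak and the first TRRAP peak, so the occupancy of both starts cannot be told apart.

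The 3 genes of the cohesin ring differed widely in CHD8 signal. SMC3 (ENSG00000108055.11, chromosome 10, 110567684 to 110606048, plus strand), an ATPase arm of the ring, had a CHD8 peak at 110567148 to 110568573 with a fold of 31.0 and a width of 1426 bp, its summit 69 bp downstream of the start. RAD21 (ENSG00000164754.16, chromosome 8, 116845934 to 116874776, minus strand), the kleisin that closes the ring, had a CHD8 peak at 116874021 to 116875113 with a fold of 25.2 and a width of 1093 bp, its summit 30 bp downstream. Starts of RAD21-AS1 and MIR3610 also lay within the RAD21 promoter window. SMC1A (ENSG00000072501.19, chromosome X, 53374149 to 53422728, minus strand), the other ATPase arm, had the weakest CHD8 promoter peak of the group, at 53422220 to 53422926, with a fold of 9.31 and a width of 707 bp. Its fold exceeded that of 22.9% of genes with a CHD8 promoter peak, against 95.3% for SMC3 and 91.0% for RAD21. The promoter of SMC1A is shared with RIBC1, a protein-coding gene that starts 36 bp upstream on the other strand. Peaks at SMC1A therefore cannot be assigned to one of the pair.

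Each ring gene carried a pair of TRRAP peaks. At SMC3 they lay upstream of and at the start site, with summits 436 bp and 10 bp upstream and nearly equal folds of 9.60 and 9.12. At RAD21 the first summit lay 16 bp downstream in exon 1 (fold 7.21) and the second 562 bp downstream in intron 1 (fold 6.26). That second summit was 5 bp from another annotated RAD21 start. At SMC1A the summits lay 7 bp upstream (fold 6.73) and 465 bp downstream (fold 5.78), the latter 16 bp from another annotated SMC1A start. The first RAD21 peak and the second SMC1A peak were 125 bp wide, the narrowest width in the TRRAP list. Thus RAD21 ranked high for CHD8 and low for TRRAP, where its fold exceeded that of 20.5% of the 7000 genes with a TRRAP promoter peak.

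The STAG genes encode alternative subunits through which cohesin meets CTCF. STAG1 (ENSG00000118007.13, chromosome 3, 136336236 to 136752403, minus strand) had the widest CHD8 peak of the group, at 136751245 to 136753180 with a width of 1936 bp and a fold of 23.9, its summit 323 bp downstream in intron 1. It also had the strongest TRRAP peak of the group, at 136751890 to 136752905, with a fold of 22.5, a width of 1016 bp and its summit 231 bp upstream. That fold exceeded 96.2% of genes with a TRRAP promoter peak. A second TRRAP peak at 136751401 to 136751781 was weaker (fold 8.65, summit 693 bp downstream). The non-coding STAG1-DT starts 252 bp upstream, and the stronger TRRAP summit lay 21 bp from that start.

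STAG2 (ENSG00000101972.20, chromosome X, 123960212 to 124422664, plus strand) had a CHD8 promoter peak at 123960425 to 123961917 with a fold of 19.0 and a width of 1493 bp, its summit 167 bp upstream of the canonical start. The gene has 13 annotated starts within the promoter window. STAG2-AS1 also starts 365 bp upstream on the other strand, so peaks in this window cannot be assigned to a single start. The TRRAP peak there was narrow, at 123961545 to 123961744 (200 bp, fold 8.17, summit 75 bp upstream). Another TRRAP peak at 123960271 to 123960403 (fold 7.21) had its summit 1363 bp upstream of the canonical start and 131 bp from another STAG2 start. It was the single TRRAP peak of the group that did not overlap CHD8, and it ended 21 bp short of the CHD8 peak. STAG1 and STAG2 thus both had wide CHD8 peaks, with TRRAP covering 1397 bp of the promoter window at STAG1 and 200 bp at STAG2.

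NIPBL (ENSG00000164190.19, chromosome 5, 36876769 to 37066413, plus strand), whose product loads cohesin onto chromatin, had a CHD8 promoter peak at 36875839 to 36877630 with a fold of 26.5 and a width of 1792 bp, its summit 32 bp upstream of the start. A pair of TRRAP peaks lay under it. The stronger one, at 36875874 to 36876088 (215 bp), had a fold of 16.8 and its summit 784 bp upstream, the farthest from the start among the strongest TRRAP promoter peaks of the group. The weaker one, at 36876451 to 36876819 (369 bp), had a fold of 9.12 and its summit 85 bp upstream, 16 bp from a start of the divergent non-coding NIPBL-DT. NIPBL also held the strongest CHD8 peak outside a promoter in the group. It lay at 36878811 to 36879066 in intron 1, with a fold of 19.9, a width of 256 bp and its summit 2171 bp downstream. From the edges of this peak, the nearest TRRAP peak was 1991 bp away and the nearest annotated start 1969 bp. A further weak CHD8 peak lay at 36875413 to 36875575 (fold 7.54), with its summit 1271 bp upstream.

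The genes of the release factors had CHD8 peaks of moderate width. WAPL (ENSG00000062650.20, chromosome 10, 86435256 to 86521792, minus strand), whose product opens the ring, had a CHD8 peak at 86521667 to 86522251 (fold 10.6, 585 bp, summit 147 bp upstream) and a second at 86521194 to 86521437 (fold 8.87, summit 469 bp downstream). The first summit lay 6 bp from the start of the divergent non-coding WAPL-DT, which begins 153 bp upstream, so the 2 starts cannot be told apart here. Its 1 TRRAP peak, at 86521755 to 86521977, reached a fold of 7.21, with the summit 50 bp upstream. PDS5A (ENSG00000121892.15, chromosome 4, 39822863 to 39977956, minus strand) had a CHD8 peak at 39977408 to 39978272 (fold 14.2, 865 bp, summit 107 bp upstream). A weak one followed at 39976514 to 39976941 (fold 7.10, summit 1210 bp downstream). Its 1 TRRAP peak, at 39977597 to 39978165, reached a fold of 10.1 with the summit 39 bp from that of CHD8. At both genes the second CHD8 peak had no TRRAP peak over it.

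PDS5B (ENSG00000083642.19, chromosome 13, 32586452 to 32778019, plus strand) is the paralog of PDS5A. Its CHD8 peak (32586138 to 32586908, width 771 bp) reached a fold of 23.9, with the summit 12 bp downstream of the start. A second CHD8 peak at 32587076 to 32587379 (fold 9.75) had its summit 798 bp downstream in intron 1. Each CHD8 peak carried its own TRRAP peak, with folds of 7.69 and 6.73 and summits 38 bp upstream and 715 bp downstream. By value, PDS5B had the higher CHD8 fold and PDS5A the higher TRRAP fold. The counting intervals given below overlap in both lists, which does not by itself decide whether the folds differ, and neither difference was tested.

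**Figure D1:**
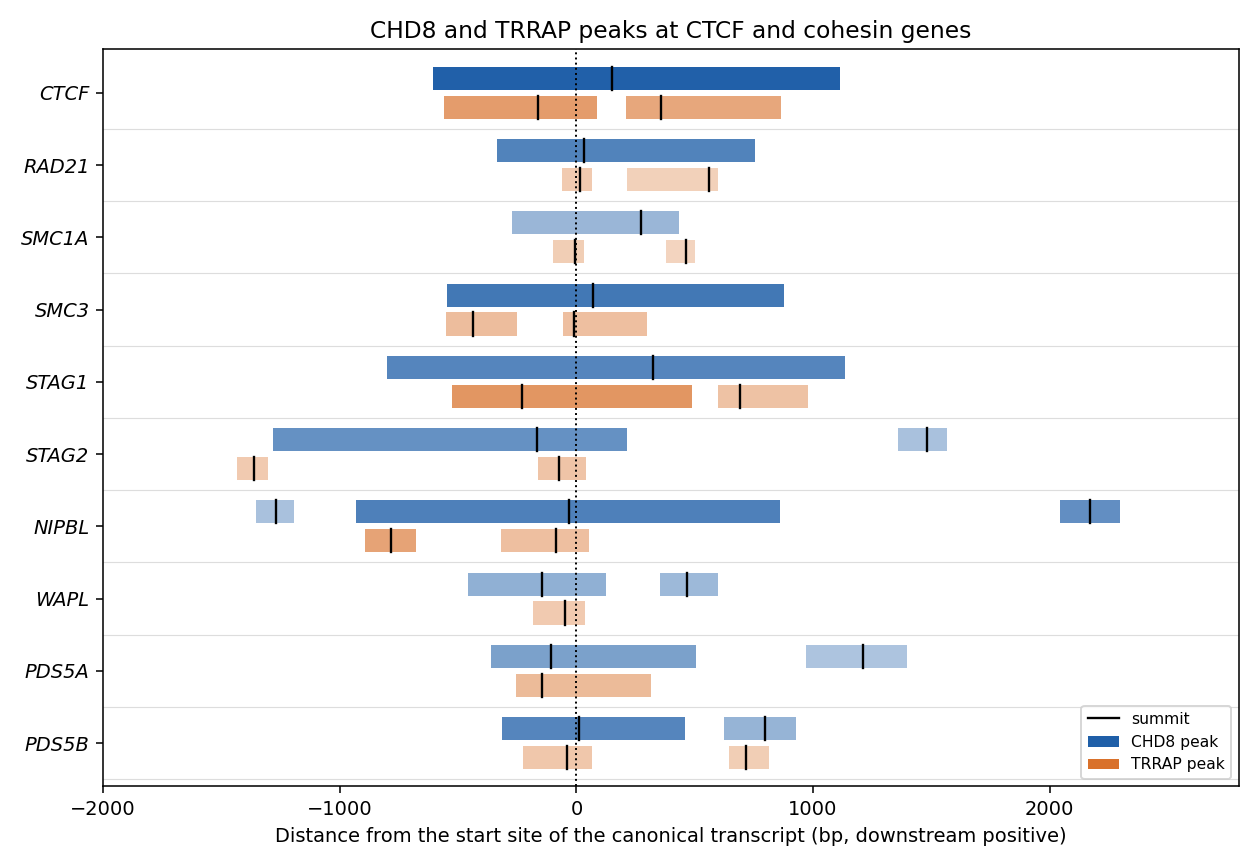
CHD8 (blue) and TRRAP (orange) peaks at the 10 genes, plotted by distance in bp from the canonical start, with black ticks at the summits and darker bars for higher folds. The CTCF peak of 1721 bp spans a pair of TRRAP peaks, and the NIPBL peak in intron 1, 2171 bp downstream, stands without TRRAP. A weak CHD8 peak 256375 bp downstream of the STAG2 start is outside the plot.

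The order of the CHD8 folds at the strongest promoter peak was CTCF, SMC3, NIPBL, RAD21, STAG1 with PDS5B, STAG2, PDS5A, WAPL and SMC1A, from 48.6 to 9.31. The deposited folds rose in equal steps, of 0.442 for CHD8 and 0.478 for TRRAP. If 1 step is read as 1 sequenced fragment at the summit, which is an assumption, a Poisson 95% interval can be attached to each fold, for counting error only. On that reading CTCF (40.0 to 58.6) stood clear of SMC3 (24.2 to 39.1). All other neighbours in the order had overlapping intervals. Overlap alone does not decide whether folds differ, and no order is claimed among SMC3, NIPBL, RAD21, STAG1 and PDS5B. STAG1 and PDS5B had the same fold of 23.9. The weakest genes, SMC1A (5.87 to 14.1) and WAPL (6.91 to 15.7), lay below the intervals of CTCF, SMC3, NIPBL, RAD21, STAG1 and PDS5B.

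For TRRAP the order was STAG1, CTCF, NIPBL, PDS5A, SMC3, STAG2, PDS5B, RAD21 with WAPL, and SMC1A, from 22.5 to 6.73. STAG1 (16.6 to 29.8), CTCF (14.2 to 26.5) and NIPBL (11.8 to 23.2) had overlapping intervals. The 7 other genes lay between 6.73 and 10.1, and each had an interval that overlapped that of the next in order. Whether neighbouring folds differ was not tested. CTCF, NIPBL and STAG1 were high in both lists, SMC3 was second in CHD8 and mid-range in TRRAP, and SMC1A was lowest in both.

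**Figure D2:**
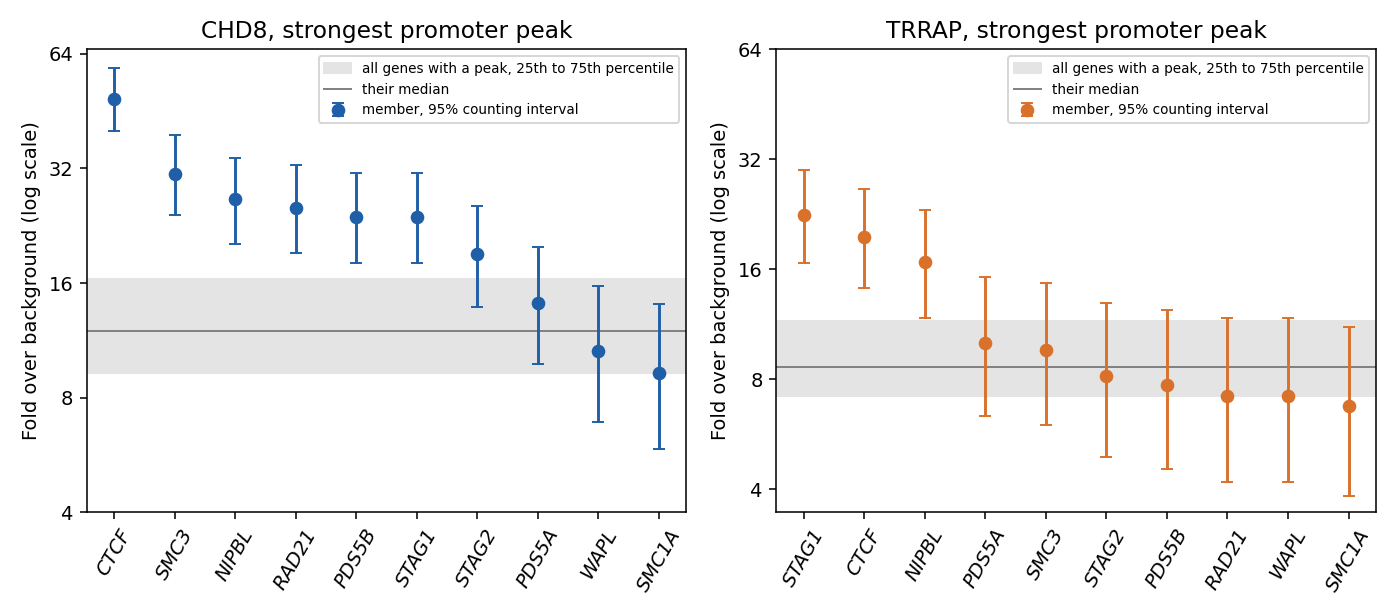
Fold over background of the strongest promoter peak of each gene for CHD8 (left) and TRRAP (right), on a log scale, with Poisson 95% counting intervals that assume 1 fragment per fold step. The grey band is the 25th to 75th percentile over all genes with such a peak, and 8 of 10 genes lie above the CHD8 median of 12.0 while 5 of 10 lie above the TRRAP median of 8.65.

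Set beside the whole list, CHD8 peaks at these genes were stronger and wider than usual. The median fold over the 10 genes was 23.9, against 12.0 over the 11208 genes with a CHD8 promoter peak, and 8 of 10 lay above that median (49.4% of all such genes did). The median width was 1259.5 bp against 638 bp, and all but WAPL were wider than the median (50% of all such genes). For TRRAP the median fold was 8.88 against 8.65 and the median width 258 bp against 269 bp, with 5 of 10 genes above the median of each (48.6% and 50% of the 7000 genes). With only the stronger part of each list, above its median rank, all 10 genes kept a CHD8 promoter peak and 5 kept a TRRAP promoter peak. Over all protein-coding genes the shares were 42.5% and 19.5%. Of the genes with a promoter peak in the full list, 8516 of 11208 kept it for CHD8 and 3915 of 7000 for TRRAP. Thus 5 of 10 was not above the usual share for TRRAP. The 5 genes without a TRRAP promoter peak above the median rank were RAD21, SMC1A, STAG2, WAPL and PDS5B.

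Promoters of 9 of the 10 genes were above the median CpG ratio (observed over expected CpG within 500 bp of the start). The ratio ran from 0.558 at STAG2 to 1.08 at PDS5B, with a median of 0.883, against 0.725 over all protein-coding genes and 0.823 over genes with both promoter peaks. The genes did not fall in the same order by CpG ratio and by CHD8: PDS5A (0.999) had a fold of 14.2 and SMC3 (0.769) a fold of 31.0. At all 35 peak summits of the group the median copy number in the reference was 1. It was taken over the first, central and last exact words of 32 bases in the 101 bp around each summit. A single one of these words may still be repeated, and other words were not counted.

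TRRAP was often split at these genes. Of the 10 genes, 8 had a pair of TRRAP peaks and 7 had both within the promoter window, where 23.8% of genes with a TRRAP promoter peak had at least 2. At 6 genes (CTCF, RAD21, SMC1A, SMC3, STAG1 and NIPBL) both TRRAP peaks overlapped the same CHD8 peak, against 10.9% of all genes with a CHD8 promoter peak. Of those genes only 60.7% had a TRRAP promoter peak, which all 10 genes had here, so the bases are unlike. At SMC1A the second TRRAP peak overlapped the CHD8 peak only in part, and its summit lay outside that CHD8 peak. The summits of a pair were 426 to 1288 bp apart, with a median of 622.5 bp. At 6 of the 8 genes with a pair the CHD8 summit lay between the TRRAP summits. With pairs inside the promoter window this held at 5 of 7, beside 55.1% of the 1440 genes with exactly 2 TRRAP promoter peaks. At SMC3 and NIPBL the CHD8 summit lay downstream of both. At STAG2 and PDS5B a pair was present, but the members of the pair did not share 1 CHD8 peak.

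A wider CHD8 peak has more room for 2 TRRAP peaks, so by construction this count can rise with CHD8 width. It was therefore read within classes of width, and how far room alone sets the rise was not tested. The share of genes with at least 2 TRRAP peaks over the strongest CHD8 promoter peak was 0.732% for CHD8 widths up to 500 bp, 8.49% from 500 to 1000 bp, 31.3% from 1000 to 1500 bp and 51.6% from 1500 to 2000 bp. Among CTCF and cohesin genes the counts were 1 of 4 (SMC1A) from 500 to 1000 bp, 2 of 3 (RAD21 and SMC3, with STAG2 the exception) from 1000 to 1500 bp and 3 of 3 (CTCF, STAG1 and NIPBL) from 1500 to 2000 bp. Over the whole range of widths of these genes, 585 to 1936 bp, the share was 17.5%. The count at SMC1A rests on the partial overlap of its second TRRAP peak. With so few genes in a class, a difference from other genes of the same CHD8 width could not be read. Whether a stretch is called as 1 peak or 2 also depends on sequencing depth and on the calling threshold, and their part was not tested.

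**Figure D3:**
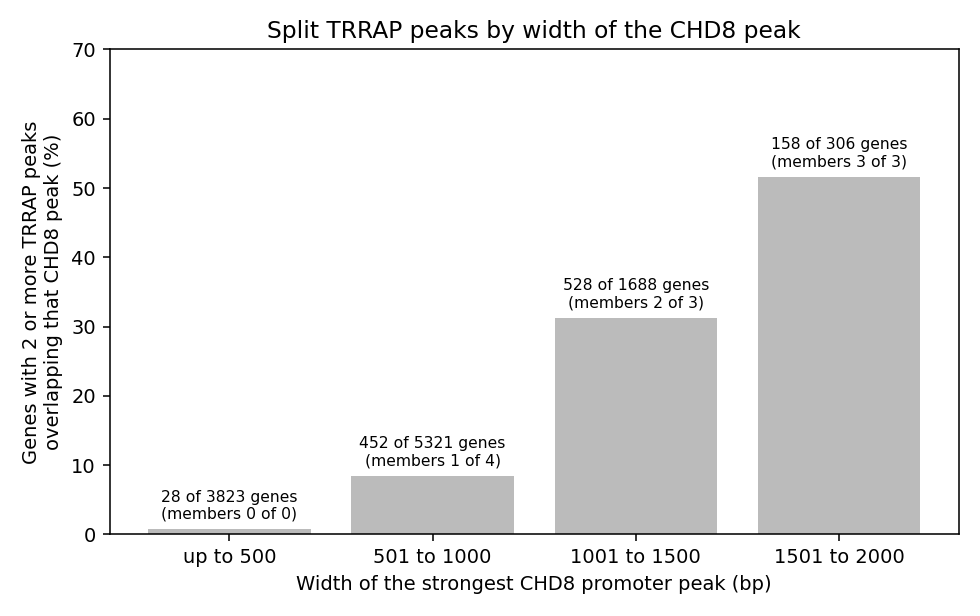
Percentage of genes with at least 2 TRRAP peaks overlapping the strongest CHD8 promoter peak, by width of that CHD8 peak in bp, over all protein-coding genes with a CHD8 promoter peak. A wider peak has more room for 2, and the bars run from 0.732% to 51.6%. The labels give the number of CTCF and cohesin genes in each class.

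The strongest CHD8 summit lay downstream of the start at 6 of 10 genes (41.5% of all genes with a CHD8 promoter peak), and the strongest TRRAP summit lay upstream at 9 of 10, all but RAD21 (63.3% of all genes with a TRRAP promoter peak). The strongest summits of both lists were a median of 188 bp apart, against 105 bp over the 6802 genes with both. They were closest at RAD21, 14 bp, and PDS5A, 39 bp, and farthest at NIPBL, 752 bp, and STAG1, 554 bp. The NIPBL distance rests on the stronger of its TRRAP peaks. When the nearest TRRAP promoter summit was taken in place of the strongest, the median was 85.5 bp, against 87 bp over all genes with both, and 7 of 10 genes had it within 100 bp (55.1% of all genes). Of the 18 TRRAP peaks, 17 overlapped a CHD8 peak, beside 86.8% of the whole TRRAP list, and of the 17 CHD8 peaks 11 overlapped a TRRAP peak, beside 48.6% of the whole CHD8 list.

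The 6 CHD8 peaks without TRRAP were the second peaks of WAPL and PDS5A, both outer peaks of NIPBL and both outer peaks of STAG2. With the exception of the NIPBL peak in intron 1 (fold 19.9) they were weak, with folds of 7.10 to 8.87. The first outer STAG2 peak, at 123963064 to 123963273, lay 1480 bp downstream in intron 1 and 16 bp from another annotated STAG2 start. The second, at 124218017 to 124218223 (fold 7.10), lay 115425 bp past the end of the canonical transcript, in the part of the gene record that only longer transcripts reach. The annotated start nearest to its summit was that of another gene, SH2D1A, 9787 bp away.

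Outside the promoters, 3 CHD8 peaks lay in gene bodies, and 1 CHD8 and the 1 TRRAP peak lay upstream. A CHD8 peak outside the promoter window was present at 2 of 10 genes, STAG2 and NIPBL, against 33.3% of the 6093 genes of similar length (28843 to 462453 bp) with a CHD8 promoter peak. A TRRAP peak outside the window was present at 1 of 10 genes, STAG2, against 22.9% of the 3836 such genes with both promoter peaks. The density outside promoters was 2.32 CHD8 peaks per Mb, against 5.98 over all protein-coding genes, and 0.580 TRRAP peaks per Mb against 3.32. STAG1, with 416168 bp, PDS5B, with 191568 bp, and PDS5A, with 155094 bp, had no peak of either list wholly outside the promoter window. The second CHD8 peak of PDS5A counted as a promoter peak because its edge overlapped the window. Its summit lay 1210 bp downstream, outside the window, so the counts outside promoters depend on this overlap rule. The densities over all protein-coding genes were not matched on gene length, and a peak in overlapping gene regions counts for each gene. With 4 and 1 peaks the densities of the group carry wide counting error, and the difference from other genes was not tested.

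Consensus words were searched on both strands from 250 bp upstream to 50 bp downstream of the canonical start, without mismatch. The YY1 word AANATGGC was present at 4 of 10 genes (CTCF, RAD21, SMC3 and PDS5B), against 8.11% of all 20033 promoters and 12.5% of the 6802 with both peaks. At these genes its first base along the gene lay 27 bp downstream, 3 bp upstream, 8 bp upstream and exactly at the start site, and in each it was read on the opposite strand, as in the first set of sequences above. The word was chosen after these sequences were seen, so its excess at these genes is a description only. At RAD21, SMC3 and PDS5B it was within 100 bp of both a CHD8 and a TRRAP summit. In all it lay near 3 of 17 CHD8 summits (8.31% of all CHD8 summits on the main chromosomes) and 4 of 18 TRRAP summits (5.19% of all TRRAP summits there). The NRF1 word GCGCANGCG was present at RAD21, STAG1 and WAPL, 3 of 10 (10.9% of all promoters, 17.3% of those with both peaks). The spelling of the NRF1 word, and of the CTCF words below, was set after these sequences were seen. Their counts are likewise a description only. The E2F word TTTCCCGC was present at SMC1A and STAG1, 2 of 10 (2.23% and 3.41%).

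The SP word GGGGCGGGG was present at 3 of 10 (24.5% of all promoters), the NFY word CCAAT at 4 of 10 (36.1%) and the ETS word CCGGAAGT at 1, NIPBL (6.14%). The E-box CACGTG, which MYC and MAX bind, was at 0 of 10 (8.76%), although 1 lay within 100 bp of the upstream TRRAP summit of SMC3, beyond the window searched. The CTCF word AGNGGGCGC, the core of the site that CTCF itself binds, was present at 2, CTCF and PDS5B (5.79% of all promoters, 7.73% of those with both peaks). At CTCF its first base lay 155 bp upstream of the start, between the first TRRAP summit and the start site, and it can be read on the opposite strand in the CTCF sequence of the second set above. A longer spelling that covers another part of the CTCF site was present in this window at 1, NIPBL (5.91% of all promoters), so which promoters hold the word depends on the spelling. Within 100 bp of the CHD8 summit of CTCF, downstream of that window, both spellings were found. No words overlapped each other at these promoters. A match is a description of the sequence and not evidence of binding.

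Other genes of the pathway were read from lists by role. Of 8 further cohesin regulators of dividing cells, all had a CHD8 promoter peak and 3 had a TRRAP promoter peak (ESCO1, ESCO2 and CDCA5). Over all protein-coding genes these shares were 55.9% and 34.9%. MAU2, the partner of NIPBL in the loader, had a CHD8 fold of 15.5 and no TRRAP promoter peak, nor did SGO1, HDAC8, ESPL1 and PTTG1. The highest CHD8 fold of that list was 33.2, at the acetyltransferase gene ESCO1. Of 5 germline relatives of CTCF and cohesin, CTCFL, SMC1B and REC8 had neither peak, and STAG3 (CHD8 fold 8.43) and RAD21L1 (7.98) had weak CHD8 peaks, the latter with TRRAP (fold 7.69). The somatic counterparts CTCF, SMC1A, RAD21, STAG1 and STAG2 all carried both.

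Condensin and SMC5/6 genes, which encode the related ring complexes, had a CHD8 promoter peak in 14 of 14 cases and a TRRAP promoter peak in 9, with median folds of 13.7 and 9.60. The highest CHD8 fold there was 20.8, at NSMCE2. Over all protein-coding genes 55.9% had a CHD8 promoter peak, and 60.7% of those also had a TRRAP promoter peak. All 7 genes of other zinc finger and looping proteins had both peaks, with a median CHD8 fold of 23.9 and a median width of 1235 bp, close to the 23.9 and 1259.5 bp of the CTCF and cohesin genes. ADNP, a zinc finger gene, had the highest CHD8 fold of that list (50.9), and 5 of the 7 had at least 2 TRRAP promoter peaks. Over all protein-coding genes 34% had both peaks, and 23.8% of those with a TRRAP promoter peak had at least 2.

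By fold and width in both lists, the genes most like CTCF among the 6802 with both peaks were ATF1, RCOR3 and HNRNPD, at distances of 0.297, 0.363 and 0.428 on the log2 scale over 4 values per gene. At ATF1 the folds were 47.8 for CHD8 and 16.3 for TRRAP. Of the cohesin genes, STAG1 was closest to CTCF, at a distance of 1.25 (rank 183), and SMC1A the farthest, at 3.85 (rank 5838).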

How the data were processed

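CHD8 and TRRAP peaks were taken from 2 deposited lists, 1 library each. Per the submitters' processing notes, HISAT2 and MACS2 2.1.1.20160309 were used with GRCh38. The control, filters and read totals are not given in the sources used here, so the depth is unknown. The fold is a linear ratio deposited by the authors, who also deposited a score and, for each peak, −log10 values of p and q. False discovery rates of 0.0001 for CHD8 and 0.001 for TRRAP appear in the names of the lists. No peak on a main chromosome ran past its end in the GRCh38 reference.

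Peaks were placed on GENCODE 44 with an overlap of at least 1 bp. The strongest peak was that with the highest −log10 q, then fold, then width. Offsets count from the start site (0) along the gene. Python 3.11.15, pandas 2.3.3, scipy 1.17.1 and pysam 0.24.0 were used, and functions were checked on planted peaks. Folds were ranked within a list only, and no p-value was computed. The 10 genes, context lists and words were chosen with earlier results of these data known, and the YY1 word and the spelling of the CTCF and NRF1 words after the promoter sequences were seen. Named were all 10 genes and their peaks, from the context lists the genes without a CHD8 promoter peak and the one with the highest CHD8 fold, and the 3 genes most like CTCF by Euclidean distance over log2 fold and log2 width. The other context genes were named after their values were seen.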

Additional observations from a re-analysis of the deposited data

How the results depend on the processing

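The presence of CHD8 and TRRAP promoter peaks at all 10 genes did not change with windows of 500 or 2500 bp, with the starts of all transcripts, or with a q-value of at most 0.0001 in both lists. With peaks above the median rank of each list, 5 genes had a TRRAP promoter peak and 5 had both, 9 TRRAP peaks were left in the regions and all 9 overlapped CHD8. By construction this keeps fewer peaks. With centres within 200 bp as the overlap rule, 9 of 18 TRRAP peaks matched a CHD8 peak. Taking the peak closest to the start changed the TRRAP peak at SMC3 (fold 9.12) and NIPBL (fold 9.12 in place of 16.8), and the gene record's 5′ end changed it at STAG2 (fold 7.21). No paired analysis was possible because each antibody had 1 library, and no library could be left out. Peak widths, splitting and the lack of a peak depend on depth, which is unknown. The fold intervals rest on the assumption of 1 fragment per step.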
